A study of Agaricus bisporus with 8 samples.

Results

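Riboflavin (vitamin B2) in the irrigation water was compared with plain water in mycelium of the button mushroom Agaricus bisporus that was still being irrigated. The comparison used the irrigated channel of each of 8 2-colour arrays, which are 8 of the 16 channels of the series. These channels were chosen by their labels and not by any measured value. The strain was var bisporus (H97), a homokaryotic line whose genome is the species' reference. Hyphae on hay in gas-tight chambers were given either water (4 arrays) or water with 50 µM riboflavin (4 arrays) for 3 weeks. Mycelium was harvested on day 3 or day 7 of a parallel drought treatment, in which watering was stopped. The irrigated mycelium described here never went through that treatment. Each group of supplement and day held 2 arrays. In replicate 1 the irrigated RNA carried the red dye Cy5 and in replicate 2 the green dye Cy3, so dye and replicate number are the same variable here. The other channel of each array held RNA of the droughted mycelium of the same supplement and day.

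Riboflavin is the precursor of the cofactors FMN and FAD. Flavoenzymes use these cofactors to carry electrons, among others in complexes I and II of the mitochondrial respiratory chain. Most fungi can make riboflavin themselves. Genes of riboflavin metabolism could not be followed by name, since the reference table used here gives a symbol to only 88 of the 10413 probes and describes no product. The other genes are named by locus tag, with no function attached. The label mycelium was not checked against marker genes for the same reason. In RNA from whole mycelium, fewer hyphae with a transcript and less transcript per hypha cannot be told apart.

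Signals were low. Between 226 and 720 probes of an irrigated channel (2.17% to 6.91%) were well above background by the scanner software's flag. The count was 448 ± 151 (SD, n = 4 arrays) with riboflavin and 494 ± 170 with water (exact two-sided permutation test, p = 0.714, smallest possible p 0.0286). The 3 probes with the highest mean level over the 8 irrigated channels took 39.2% to 87.5% of the summed net signal with riboflavin. With water they took 59.5% to 88.9% (exact permutation p = 0.429). They were AGABI2DRAFT_75612, AGABI2DRAFT_75870 and AGABI2DRAFT_187811, and the same 3 were summed on every array. On both riboflavin replicate 2 arrays AGABI2DRAFT_187811 ranked 4 in brightness, below AGABI2DRAFT_191238. On riboflavin day 3 replicate 2, the array at 39.2%, AGABI2DRAFT_191238 was brighter than all 3 (net signal 163345). The riboflavin replicate 2 arrays stood apart from the rest. Across the 417 tested genes without missing values, their levels correlated at 0.98 with each other but at 0.54 to 0.70 with the water arrays and at 0.72 to 0.82 with riboflavin replicate 1. The water arrays correlated at 0.84 to 0.95 with each other. Riboflavin replicate 1 correlated with the water arrays at 0.73 to 0.92. These are correlations across genes that share an array and a dye, given as a description. According to the file headers a single slide held the 8 arrays, water in one row and riboflavin in the other, so slide row and supplement cannot be told apart. The labels conflict on replication. By title, a group has a replicate 1 and a replicate 2 array, whereas the descriptions give both the same biological replicate number and mark one as a dye swap. If the descriptions hold, each supplement rests on 2 biological samples, 1 per day, and the SDs, SEs and p-values over 4 against 4 arrays count technical repeats as samples. With each pair of arrays taken as 1 value, limma called 49 genes (28 higher, 21 lower) with 1 residual degree of freedom. The mean of a pair does not show where its 2 arrays disagree. Among the 49 was AGABI2DRAFT_189264, with a log2 difference of -0.05 in replicate 1 and 4.28 in replicate 2.

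With riboflavin, 2 genes were higher in irrigated mycelium by limma at an adjusted p under 0.05, and no gene was lower. These 2 of 420 tested genes are 0.476%. The 2 genes were AGABI2DRAFT_136259, with a log2 difference of 4.76 ± 0.54 (SE, 4 against 4 arrays, limma adjusted p = 0.0392), and AGABI2DRAFT_195355, with 3.07 ± 0.27 (adjusted p = 0.0219). On the linear scale these are 27.2-fold and 8.41-fold higher. From the scanner software's processed signals limma called 60 genes, 10 higher and 50 lower, with the median of all tested genes at -0.27 against -0.05 here. A gene was tested if some group had both of its irrigated channels well above background. Levels are log2 intensities after background correction and quantile normalization over the 8 irrigated channels, and the fit held terms for day and dye.

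For AGABI2DRAFT_136259 the net signal (spot minus local background, in scanner units, before normalization) was 70.5 and 109 on the water arrays of day 3 and 60 and 91.3 on those of day 7, replicate 1 first. With riboflavin it was 5070 and 38743 on day 3 and 912 and 26624 on day 7. All 4 riboflavin arrays lay far above all 4 water arrays, and within riboflavin the replicate 2 arrays were the higher ones. After normalization its level was 6.99, 7.13, 6.82 and 7.28 with water and 11.42, 13.02, 9.82 and 13.02 with riboflavin, in the same order. The groups did not overlap, and the SD was 0.20 with water and 1.53 with riboflavin. The probe was well above background on 8 of 8 arrays.

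AGABI2DRAFT_195355 gave net signals of 264 and 299.75 (water day 3), 506 and 371 (water day 7), 4968 and 18051 (riboflavin day 3) and 1616 and 16726 (riboflavin day 7). Here too the groups did not overlap. Its normalized levels were 8.33, 8.50, 8.38 and 9.39 with water and 11.10, 12.47, 10.85 and 12.47 with riboflavin. The mean was 8.65 ± 0.50 (SD, n = 4) with water and 11.72 ± 0.87 with riboflavin. The gene had 2 spots per array, whose log2 values lay up to 1.23 apart on 1 array. For AGABI2DRAFT_136259 that gap was at most 0.77.

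**Figure D1:**
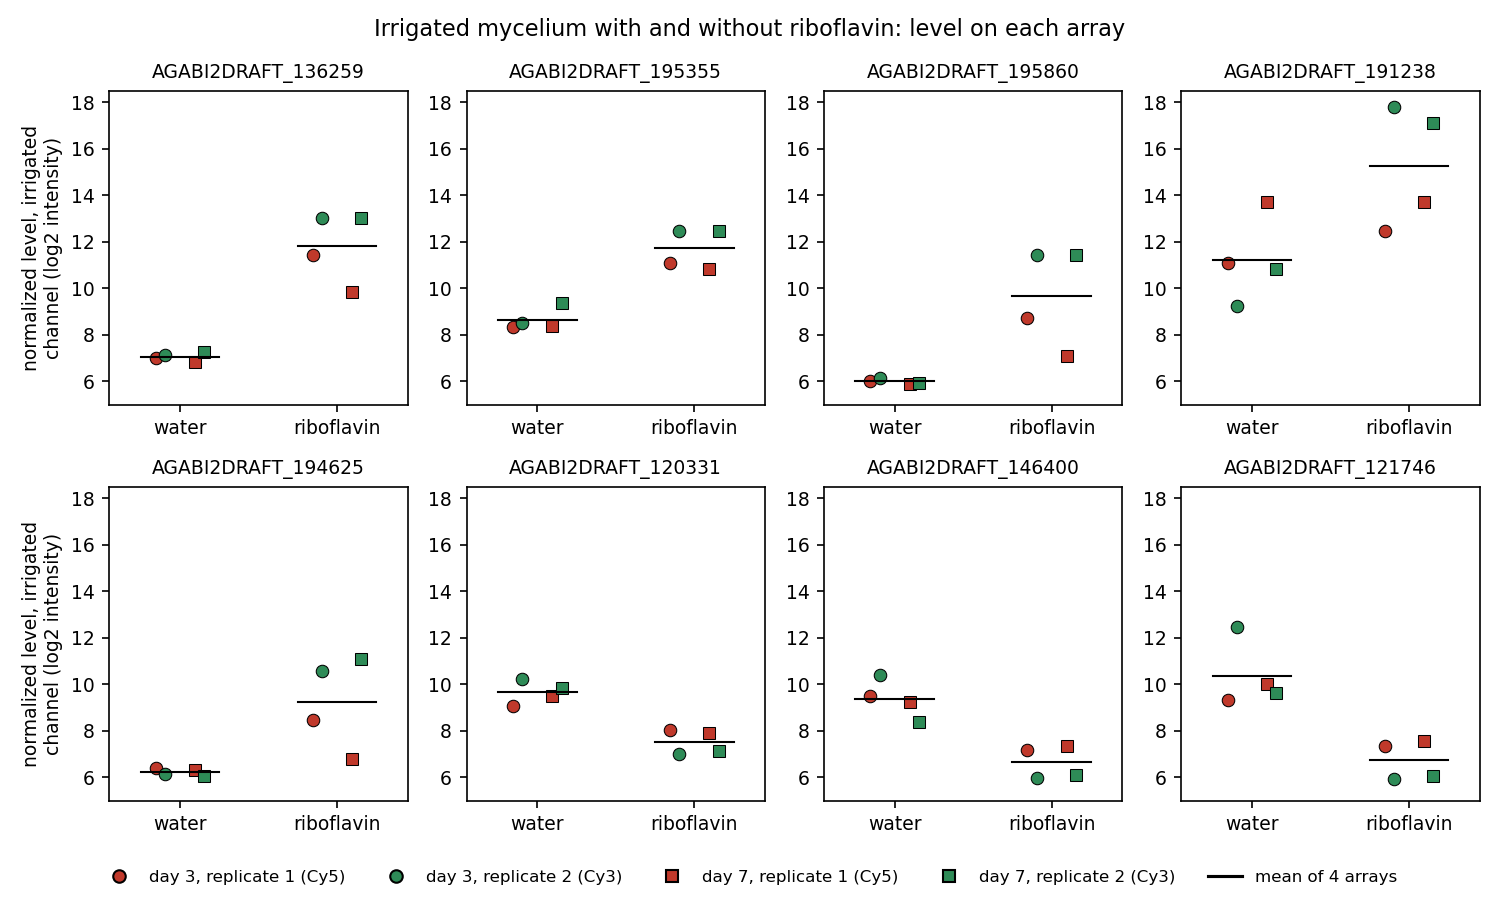
Normalized level (log2 intensity, vertical axis) of 8 genes in the irrigated channel of each array, water on the left and riboflavin on the right of each panel. Circles are day 3, squares day 7, red is replicate 1 (Cy5), green replicate 2 (Cy3), and the line is the mean of 4 arrays. AGABI2DRAFT_136259 and AGABI2DRAFT_195355 lie higher on all 4 riboflavin arrays, AGABI2DRAFT_121746 lies lower on all 4, and AGABI2DRAFT_191238 overlaps.

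The size and the call of both genes depended on the settings, while their direction did not under any of 23 alternatives. With 75th percentile scaling the log2 differences were 5.99 and 4.15 (adjusted p = 0.252 for both, limma), with loess and Aquantile 5.15 and 3.20 (0.124 and 0.152), and without a dye term 4.76 and 3.07 (0.0773 for both). Leaving out any of 6 arrays ended both calls: water day 3 replicate 1 (adjusted p = 0.0751 for both), water day 7 replicate 1 (0.113 for both), water day 7 replicate 2 (0.255 for AGABI2DRAFT_136259 and 0.147 for AGABI2DRAFT_195355), riboflavin day 3 replicate 1 (0.296 and 0.262), riboflavin day 3 replicate 2 (0.241 and 0.141) and riboflavin day 7 replicate 2 (0.140 for both). Over the leave-one-out fits the log2 difference stayed between 4.25 and 5.42 for AGABI2DRAFT_136259 and between 2.71 and 3.37 for AGABI2DRAFT_195355.

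Among the 420 tested genes, 20 (4.76%) had all 4 riboflavin arrays above all 4 water arrays and 58 (13.8%) had all 4 below. Most of these differences were small: 13 of the 20 and 38 of the 58 differed by 1 log2 unit or less. The remaining 7 higher and 20 lower genes are described as 2 sets. They were chosen by their values in this comparison, so their direction is fixed by the choice and nothing is tested on them. The median log2 difference was -0.05 over all tested genes. At an unadjusted p under 0.05 there were 93 genes, 31 higher and 62 lower with riboflavin. Some genes passed the filter only through the supplement where they are high. AGABI2DRAFT_146556 and AGABI2DRAFT_188752, both among the 58, were well above background on 4 water and 0 riboflavin arrays. AGABI2DRAFT_195860, among the 20, was so on 4 riboflavin and 0 water arrays. The split into higher and lower genes is therefore not read as a result.

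**Figure D2:**
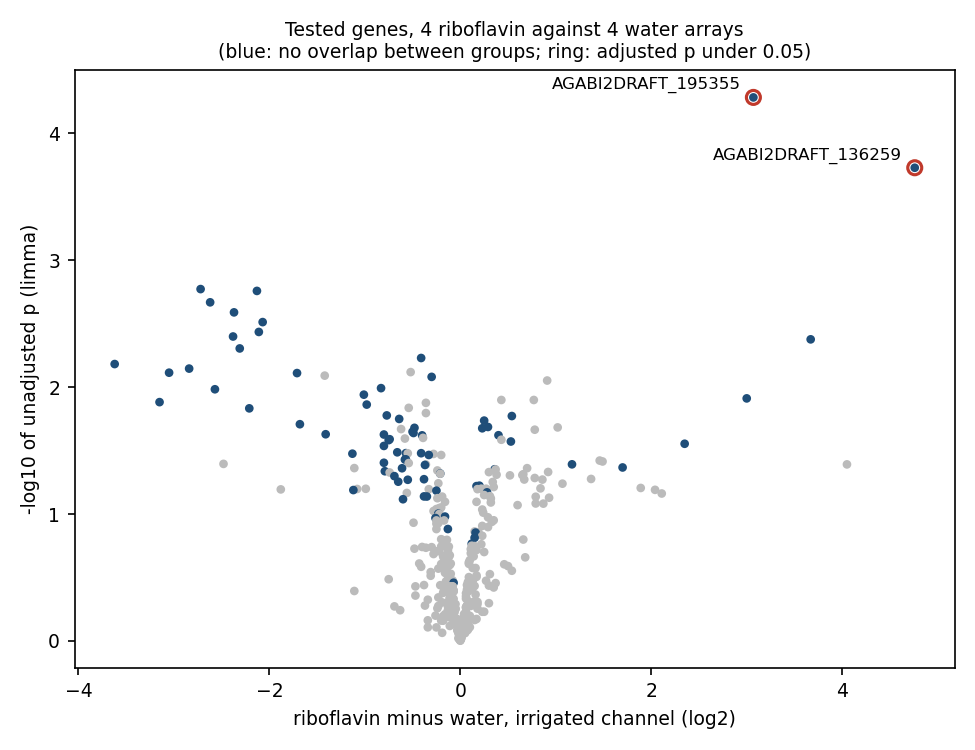
Log2 difference between riboflavin and water in irrigated mycelium (horizontal axis) against -log10 of limma's unadjusted p (vertical axis), 1 point for each of 420 tested genes. Blue points are genes whose groups did not overlap, and rings mark the 2 genes with an adjusted p under 0.05, both higher with riboflavin.

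The other genes of the higher set were AGABI2DRAFT_195860 (3.67 ± 0.78, limma adjusted p = 0.176), AGABI2DRAFT_194625 (3.00 ± 0.82, adjusted p = 0.199), AGABI2DRAFT_63301 (2.35 ± 0.79, adjusted p = 0.209), AGABI2DRAFT_223546 (1.70 ± 0.65, at least 3.09-fold, with no water array well above background) and AGABI2DRAFT_183336 (1.17). None of these 5 passed the test, and AGABI2DRAFT_223546 and AGABI2DRAFT_183336 were named after their values were seen. AGABI2DRAFT_195860 was not well above background on any water array, where its net signal was 9, 24.5, 3 and 21. On the riboflavin arrays it was 429, 4772, 93 and 3606. Its riboflavin level was at least 12.6-fold higher, taking each water array at the higher of its own level and the lowest level well above background. The measured mean levels were 9.67 ± 2.13 (SD, n = 4) and 6.0 ± 0.11.

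AGABI2DRAFT_194625 had net signals of 29.3, 25.8, 27 and 24.3 with water and of 362, 2045, 69 and 2387 with riboflavin. The water arrays were close together, whereas the riboflavin arrays differed widely. AGABI2DRAFT_63301 showed the same split, with 64.8 and 33.3 on the riboflavin replicate 1 arrays and 1704 and 1212 on replicate 2, against 7 to 24.3 with water.

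In 3 further genes with a large mean difference the groups overlapped. AGABI2DRAFT_191238 had a log2 difference of 4.05 ± 1.52 (adjusted p = 0.224, limma), from net signals of 1604, 1053, 8156 and 907 with water and of 8964, 163345, 8973 and 104137 with riboflavin. Its difference was 0.68 in replicate 1 and 7.41 in replicate 2. AGABI2DRAFT_189264 (2.11 ± 0.94) and AGABI2DRAFT_135951 (2.04 ± 0.89) were high on the riboflavin replicate 2 arrays alone. AGABI2DRAFT_189264 stood at -0.05 in replicate 1 and 4.28 in replicate 2. AGABI2DRAFT_135951 stood at -0.02 and 4.11.

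The lower set of 20 genes had log2 differences from -3.62 to -1.01, with a median of -2.26, and none passed the test. AGABI2DRAFT_121746 had the largest (-3.62 ± 0.85, limma adjusted p = 0.184). With water its net signal was 345, 2931, 1004 and 380, and with riboflavin it was 133, 18.3, 134 and 25.8. Water day 3 replicate 2 was the highest array, and every riboflavin array lay under every water array. AGABI2DRAFT_123048 (-3.15 ± 0.88), AGABI2DRAFT_120132 (-3.05 ± 0.75) and AGABI2DRAFT_194860 (-2.84 ± 0.68) followed, with net signals that ran nearly in parallel. On water day 3 replicate 2, for example, they gave 2811, 2738 and 2704. Whether these probes share target sequence was not tested.

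AGABI2DRAFT_146400 (-2.72 ± 0.48), AGABI2DRAFT_121409 (-2.62 ± 0.48) and AGABI2DRAFT_120331 (-2.13 ± 0.38) had the smallest p-values among the lower genes, with limma adjusted p = 0.176 for all 3. AGABI2DRAFT_120331 was the member of the set that was well above background on every array of both groups. Its level was 9.08, 10.22, 9.48 and 9.82 with water and 8.03, 6.99, 7.91 and 7.15 with riboflavin. The mean was 9.65 ± 0.49 (SD, n = 4) and 7.52 ± 0.53. AGABI2DRAFT_116162 (-2.57 ± 0.67) belonged to the set as well. AGABI2DRAFT_123230 (-2.48 ± 0.93) did not, since its level of 7.14 on water day 3 replicate 1 lay within the riboflavin range of 6.06 to 7.33.

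The lower set was well above background on all water arrays, in 20 of 20 genes each. With riboflavin it was so in 17 and 19 genes on the replicate 1 arrays but in 1 gene on each replicate 2 array. The sizes on replicate 2 are therefore limited by the background. The median level of the set was 8.03, 9.96, 8.72 and 8.35 with water and 6.85, 5.99, 7.02 and 6.05 with riboflavin. For comparison, the median over all probes was 5.93. When water day 3 replicate 2, the array with the highest levels of this set, was left out, limma called 14 genes, 2 higher and 12 lower. AGABI2DRAFT_146400, AGABI2DRAFT_121409 and AGABI2DRAFT_121746 were among the 12 (adjusted p = 0.0101, 0.0101 and 0.0277). Fits without 1 array gave 0 to 14 calls, so this fit gave the most. Over these fits limma's adjusted p rose to 0.501 for each of the 3 genes.

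**Figure D3:**
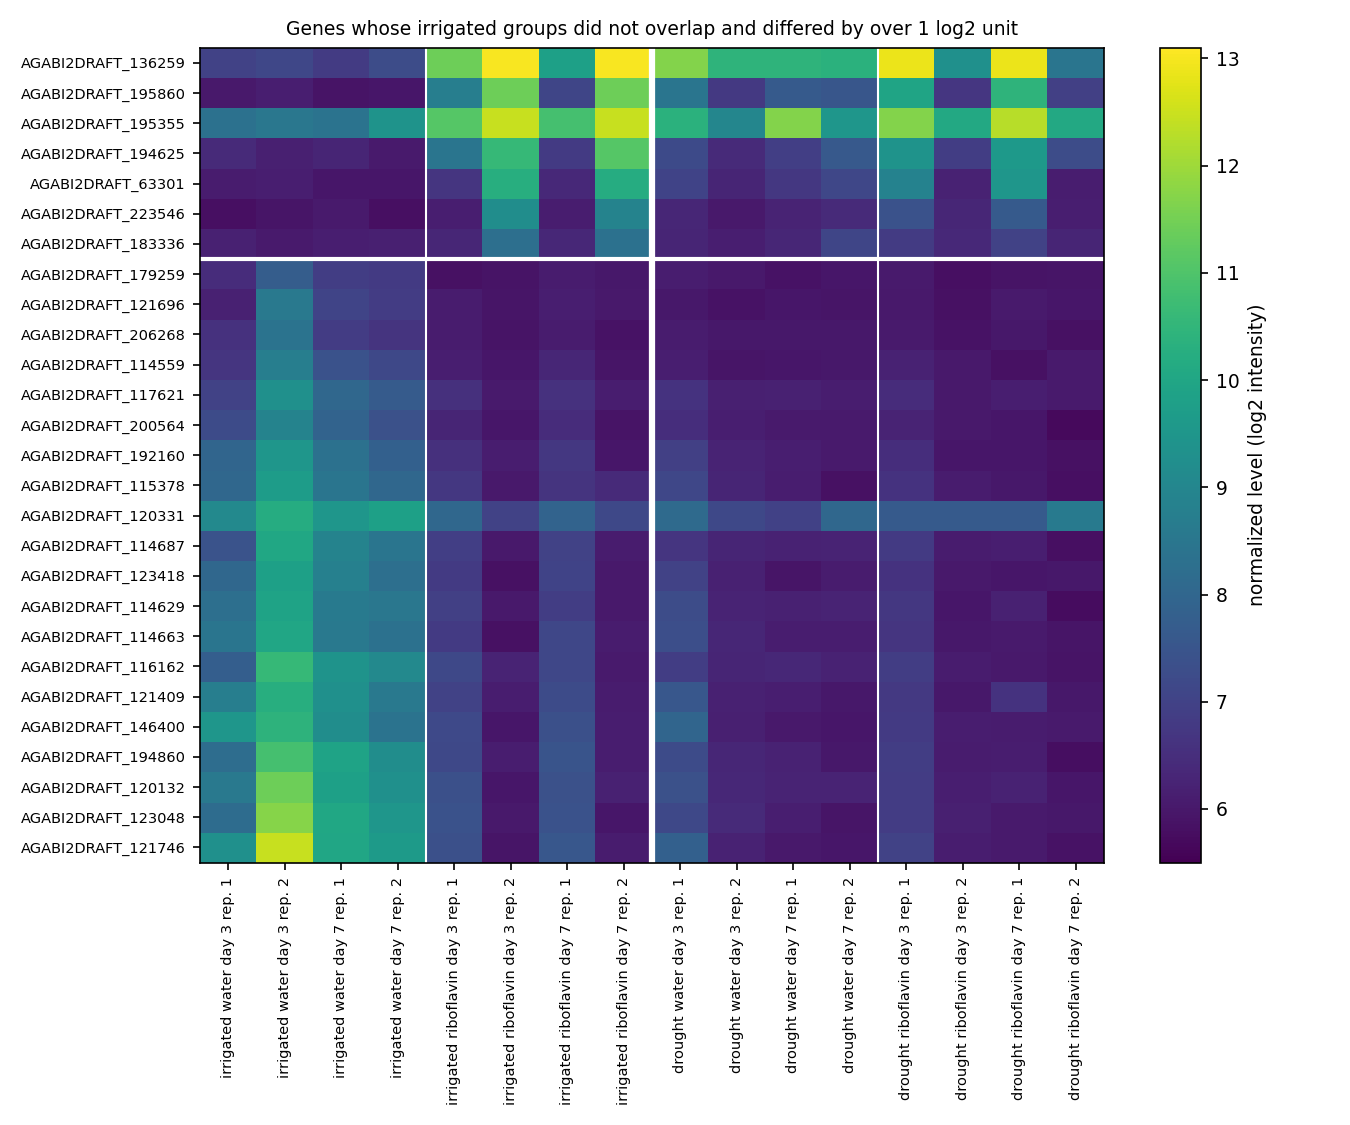
Normalized level (colour, log2 intensity) of the 7 higher and 20 lower genes (rows, ordered by their difference) in the 8 irrigated channels on the left and the 8 drought channels on the right, water before riboflavin. The irrigated and drought channels were normalized separately. The lower set is brightest in irrigated water mycelium, and the higher set is brightest on the irrigated riboflavin replicate 2 arrays.

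Riboflavin effects were larger in replicate 2 than in replicate 1. The difference of the 2 riboflavin from the 2 water arrays had an SD across genes of 0.55 in replicate 1 and 1.22 in replicate 2. It was beyond 1 log2 unit for 32 genes in replicate 1 (12 higher, 20 lower) and for 75 genes in replicate 2 (33 higher, 42 lower). Of the 25 genes beyond 1 in both, 21 had the same sign, 4 higher and 17 lower. A further 26 genes were higher by over 1 in replicate 2 with a size under 0.5 in replicate 1. In the other direction there were 10 such genes. The effects of the 2 replicate numbers, which share no array, correlated at 0.53 across 417 genes (Spearman's rho 0.36).

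**Figure D4:**
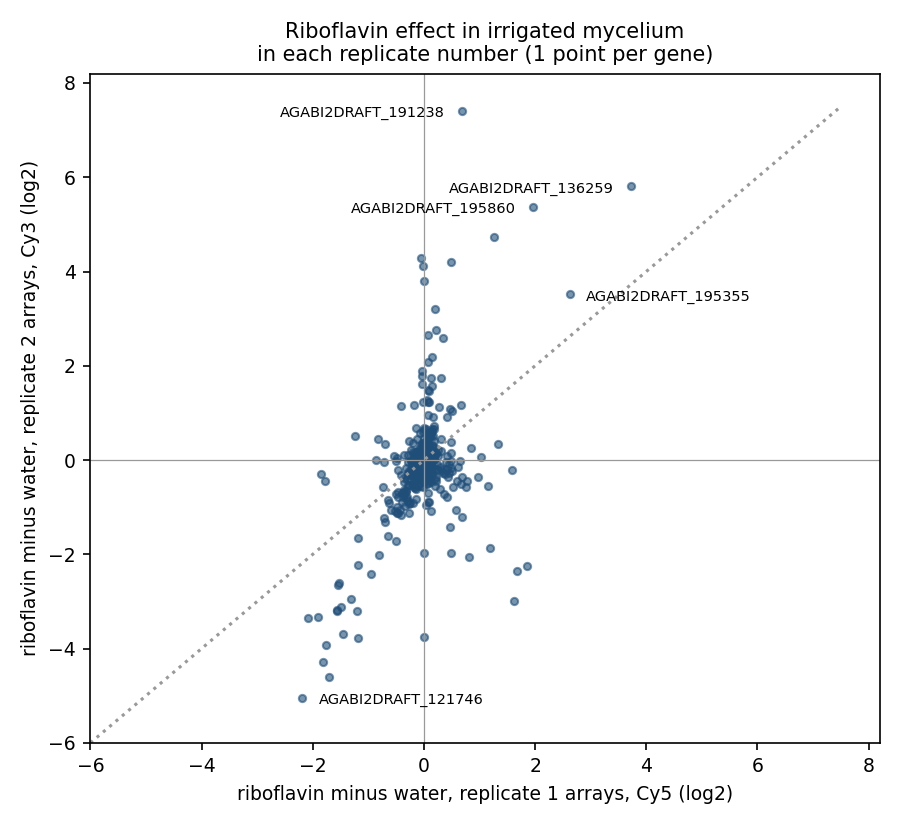
Riboflavin minus water in irrigated mycelium on the replicate 1 arrays (Cy5, horizontal axis) and on the replicate 2 arrays (Cy3, vertical axis), both in log2 units, with 1 point per tested gene without missing values and a dotted line of equal values. AGABI2DRAFT_136259 and AGABI2DRAFT_195355 are high in both, AGABI2DRAFT_191238 mainly in replicate 2, and a group of genes around AGABI2DRAFT_121746 is low in both.

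On the riboflavin arrays the higher set moved with the dye. All 7 of its genes were brighter in the Cy3 than in the Cy5 channel on each of the 4 riboflavin arrays. Cy3 held drought RNA in replicate 1 and irrigated RNA in replicate 2. These genes were chosen for high irrigated riboflavin levels, which favours Cy3 in replicate 2. Of the 20 lower genes, 0 were brighter in Cy3 on each of these arrays, and no share over all tested genes was taken. On the water arrays the log2 ratio of irrigated over drought ran from -3.92 to 0.02 over the higher set, with both dyes included. For AGABI2DRAFT_136259 it was -2.46 and -3.34 on water replicate 2, so there Cy3 was the dimmer channel. The riboflavin effect in the Cy3 irrigated channel (replicate 2) correlated across 418 genes at 0.49 with that in the Cy3 drought channel (replicate 1). The corresponding value between the Cy5 irrigated and the Cy5 drought channel was 0.29 (418 genes). Between different dyes on different arrays it was 0.53 for the 2 irrigated channels (417 genes) and -0.18 for the 2 drought channels (419 genes). Between the irrigated and drought channels of the same arrays it was 0.11 in replicate 1 (418 genes) and -0.08 in replicate 2 (419 genes). The part of the dye or of the channel labels in these values was not tested. Taking the other channel of both riboflavin replicate 2 arrays as the irrigated one gave log2 differences of 2.87 for AGABI2DRAFT_136259 and 2.05 for AGABI2DRAFT_195355 (adjusted p = 0.4445 for both, limma), and no gene was called. With that exchange 6 of the 7 higher genes and 20 of the 20 lower ones still had groups without overlap. The lower set had mean differences from -3.47 to -1.10. Both sets were chosen for lack of overlap, and the exchange kept the water and riboflavin replicate 1 channels. Much of this outcome was therefore fixed by the choice, and the share over all tested genes was not counted. The fitted differences, with the dye term, were smaller, from -2.86 to -0.66 over the lower set and from 0.14 to 2.87 over the higher set. Without the 2 riboflavin replicate 2 arrays the differences were 3.5 for AGABI2DRAFT_136259 and 2.36 for AGABI2DRAFT_195355 (adjusted p = 0.439 for both).

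Of the tested genes, 4 carried a symbol, and none of these passed the test. SDH1, the FAD-binding subunit of succinate dehydrogenase (complex II), had a log2 difference of 1.46 ± 0.54 (limma adjusted p = 0.224). Its net signal was 65.3, 48, 36.3 and 54.3 with water and 160, 402, 43.8 and 508 with riboflavin. The replicate 2 arrays were high and riboflavin day 7 replicate 1 lay among the water arrays. SDH2, the iron-sulfur subunit of the same complex, had mean levels of 6.12 in both groups, near background, and was well above it on 3 of 8 arrays. CytC2, whose symbol denotes cytochrome c, the mobile electron carrier of the respiratory chain, had a difference of 0.84 ± 0.36 (adjusted p = 0.230), with 1.33 in replicate 1 and 0.35 in replicate 2. Its levels overlapped between the groups. The difference was 0.48 without riboflavin day 3 replicate 1 and 1.25 without water day 7 replicate 2, the extremes over the leave-one-out fits. Fet3, which in Saccharomyces cerevisiae is a multicopper ferroxidase of iron uptake, was not well above background on any riboflavin array and was so on 2 water arrays.

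The other genes of these pathways were mostly too dim. Of the 15 probes for cytochrome c, cytochrome oxidase and ATP synthase, 1 was tested (CytC2), and it passed in neither direction. Of 38 probes for complexes I to III and alternative respiratory enzymes, a list added after the reference table was seen, 2 were tested (SDH1 and SDH2), and again neither passed. The 5 heat shock genes (hspA to hspE), the 7 genes of lignin and phenol oxidation (laccases and the manganese peroxidase MnP) and the 2 catalases on the array gave no tested gene. MnP was well above background on 1 irrigated array and hspD on 2.

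Whether the riboflavin effect differed between the harvest days was tested by its change from day 3 to day 7. No gene passed in limma (0 calls), with 2 below 0.05 before adjustment. AGABI2DRAFT_136259 differed by 5.16 ± 0.81 between riboflavin and water on day 3 and by 4.37 ± 0.81 on day 7. For AGABI2DRAFT_195355 the values were 3.37 ± 0.38 and 2.77 ± 0.38. For AGABI2DRAFT_121746 they were -4.25 ± 1.28 and -2.99 ± 1.28. The smallest p-values belonged to AGABI2DRAFT_200290, AGABI2DRAFT_75878 and AGABI2DRAFT_115419, with limma adjusted p = 0.9999 for all 3. AGABI2DRAFT_200290 had -1.17 ± 0.12 on day 3 and -0.14 ± 0.12 on day 7. It was not well above background on any riboflavin array, and over both days its water level was at least 1.54-fold higher. AGABI2DRAFT_115419 had 0.64 ± 0.12 and 0.22 ± 0.12.

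In the droughted channel of the same arrays the riboflavin minus water difference of AGABI2DRAFT_136259 was 1.81 in replicate 1 (Cy3) and -1.53 in replicate 2 (Cy5), so that its mean of 0.14 averages opposite values. AGABI2DRAFT_195355 stood at 0.96 and 0.85 there, and AGABI2DRAFT_121746 at -0.39 and -0.11. These values are after normalization. The net drought signal of AGABI2DRAFT_195355 in replicate 1 was 906 and 1687 with water and 4690 and 6041 with riboflavin, day 3 first. In replicate 2 it was 801 and 628, then 938 and 1023. For AGABI2DRAFT_136259 it was 1548 and 1234, then 10622 and 13129 in replicate 1. In replicate 2 that gene had 1801 and 1241, then 608 and 302. The difference between the irrigated and the drought effect was tested on the log2 ratio of irrigated over drought within each array. Again limma gave 0 calls, and 31 of 420 genes were below 0.05 before adjustment (12 higher, 19 lower). AGABI2DRAFT_139997 had the smallest p (1.63 ± 0.21, adjusted p = 0.164). With water its irrigated RNA exceeded its drought RNA by 0.54, 0.80, 0.30 and 1.66 log2 units, and with riboflavin by 1.63, 2.65, 2.26 and 3.30. The water value of 1.66 (day 7 replicate 2) lay just above the lowest riboflavin value. With the riboflavin replicate 2 arrays turned, as above, its sign reversed (-0.93, adjusted p = 0.869). Without water day 3 replicate 1 its difference was 1.84 (adjusted p = 0.0469). In the irrigated channel alone its difference was 0.79 ± 0.37. AGABI2DRAFT_183881 (0.99 ± 0.19) and AGABI2DRAFT_150982 (-0.58 ± 0.11) came next, each with an adjusted p of 0.352. For AGABI2DRAFT_136259 the difference was 4.77 ± 1.61 and for AGABI2DRAFT_121746 -2.87 ± 1.14 (adjusted p = 0.505 for both). The ratios of AGABI2DRAFT_136259 on the riboflavin arrays were -1.48, 5.04, -3.91 and 5.79, positive in replicate 2 alone. With those arrays turned its fitted difference was -0.14 (adjusted p = 0.989) and its plain mean difference -0.65, against -1.98 and -2.91 for AGABI2DRAFT_121746 (adjusted p = 0.628).

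Irrigated and droughted mycelium grown with water share the 4 irrigated water samples with the comparison above, and no test was run between them for the sets. The log2 ratio of irrigated over drought on the water arrays ran from -3.92 to 0.02 over the higher set. It was -3.90, -2.46, -3.92 and -3.34 for AGABI2DRAFT_136259 and 0.97, 6.0, 3.61 and 2.30 for AGABI2DRAFT_121746. Over the lower set the ratio lay between 0.20 and 6.0 with water and between -0.97 and 1.14 with riboflavin. The median level of the lower set in the drought channel was 7.06, 6.24, 6.12 and 6.02 with water and 6.70, 6.03, 6.05 and 5.94 with riboflavin. That of the higher set was 7.22, 6.42, 6.92 and 7.53 with water and 9.39, 6.69, 9.62 and 6.93 with riboflavin. Drought levels of the higher set were thus high with riboflavin in replicate 1, where the drought RNA carried Cy3.

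For the probes with the most signal, quantile normalization makes the level depend on order, since only 6 probes of an array lay above a level of 12. This holds for both called genes on the riboflavin replicate 2 arrays. AGABI2DRAFT_136259 ranked 5 in brightness on both, at a level of 13.02 from net signals of 38743 and 26624. AGABI2DRAFT_195355 ranked 6 on both, at 12.47 from 18051 and 16726. The differences, SDs and SEs of these 2 genes include levels set by order. AGABI2DRAFT_187811 had a log2 difference of -1.88 ± 0.81 (limma adjusted p = 0.230) from a level of 13.70 on both riboflavin replicate 2 arrays and of 17.11 or 17.79 elsewhere. Its net signal on those 2 arrays was 78822 and 77923, against 64469 and 202270 on the water replicate 2 arrays. In replicate 1 its difference was 0.00. AGABI2DRAFT_75870 (0.17 ± 0.15) and AGABI2DRAFT_75612 (-0.17 ± 0.12) lay within the spread between arrays, and the sign of AGABI2DRAFT_75870 turned under 75th percentile scaling and under loess and Aquantile.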

How the data were processed

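RNA was measured on Agilent 2-colour arrays of 10413 gene probes. The deposited scanner tables give spot and background signals as raw intensity, made with Feature Extraction 11.5.1.1 per the file headers, and the same tables hold processed intensity values, background-subtracted and dye-normalized. A further deposited table holds log2 ratios (Cy5 to Cy3) made by the authors. The submitters' processing notes name limma, and normexp with an offset of 16 followed by loess gave every value of that table to within 5e-10. The genome build of the array design is not given in the sources used here.

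Here, median and background median signals were corrected by normexp (offset 50), outlier-marked spots (0 to 4 per irrigated channel) were dropped, 4795 probes with 2 spots were averaged, and the 8 irrigated channels were quantile-normalized. No spot was saturated. Limma 3.58.1 (R 4.3.3) was fitted with supplement, day and dye (4 residual degrees of freedom), and p-values were adjusted by Benjamini-Hochberg over 420 tested probes. For 3 of these a value was missing on at least 1 array, and their fits left it out. Locus tags of assembly Agabi_varbisH97_2 matched 10348 probes. Within-array ratios were loess-normalized. The number of arrays limits the precision.

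Named genes were the called genes, the 5 smallest p-values, the 8 largest differences in each direction among probes above background on 4 or more arrays, the 4 largest in each direction without overlap, genes with a symbol, the 3 brightest probes, and the 3 smallest p-values of the other comparisons. Genes and lists were chosen with earlier results of these data known. Of the 9 symbol lists, those for riboflavin, trehalose and mannitol, hydrophobins, lignocellulose enzymes and ribosomes matched no probe.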

Additional observations from a re-analysis of the deposited data

Results flagged for a closer look

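In 64 groups of 4 arrays (30 genes with 2 supplements each, and 2 whole-channel measures), 3 levels lay far from the other 3 arrays of their group. For independent normal values about 1 in 20 groups would be flagged. Most of these genes were chosen by their values, all share the same arrays, and some levels are tied. The share seen here was therefore not compared with chance. AGABI2DRAFT_195355 stood at 9.39 on water day 7 replicate 2, against 8.33 to 8.50 on the other water arrays, which is on the side of the riboflavin arrays. AGABI2DRAFT_187811 stood at 17.79 on the same array, against 17.11 on the others. Quantile normalization sets these levels by order, and the probe ranked 1 in brightness there and 3 on the other water arrays. AGABI2DRAFT_200290 stood at 5.92 on riboflavin day 3 replicate 1, against 6.01 to 6.02, all near background. The riboflavin effect on AGABI2DRAFT_75878 had opposite signs on the 2 days without overlap between the groups on either day. It was 1.1 ± 0.30 on day 3 and -0.39 ± 0.30 on day 7, a difference of -1.49 ± 0.43 that did not pass limma's test (adjusted p = 0.9999).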

How the results depend on the processing

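The count of 2 called genes (both higher) was the same with an offset of 16, no filter, stricter filters on dim probes, and an intensity trend. It was 60 with the scanner software's processed signals (10 higher, 50 lower, median over tested genes -0.27), 21 in a separate-channel fit of all 16 channels (6 higher, 15 lower, 417 genes), 49 with each pair of arrays as 1 value (28 higher, 21 lower, 1 residual degree of freedom) and 18 with replicate 2 alone (14 higher, 4 lower). It was 0 with 75th percentile scaling, with loess and Aquantile, without both riboflavin replicate 2 arrays, with those arrays turned and with replicate 1 alone. At an unadjusted p under 0.05 these limma fits gave 78, 72, 20, 38 and 44 genes. Leaving out 1 array gave 0 to 14 calls. Replicate number equals dye, and without this replicate block 0 genes were called (78 at an unadjusted p under 0.05). Deviations of same-numbered arrays correlated at -0.26 to 0.80 over 6 pairs of groups, over 0.1 for the riboflavin day 3 and day 7 pair alone (0.80), so the numbers were not taken to pair the samples of different supplements. The day difference gave 0 calls under 20 alternatives. The irrigated minus drought difference gave 0 to 1 calls with 1 array left out (AGABI2DRAFT_139997, without water day 3 replicate 1), 1 with array pairs as 1 value (AGABI2DRAFT_136259) and 15 with replicate 2 alone. The cause of these changes was not tested. Signs turned for genes that were not called. Fet3 was 0.01 without the riboflavin replicate 2 arrays and in replicate 1 alone, and 0.06 turned. AGABI2DRAFT_135951 was -0.02 and AGABI2DRAFT_189264 -0.05 in the first 2 settings, the latter also turned. AGABI2DRAFT_75870 was -0.07 with 75th percentile scaling and -0.74 with loess and Aquantile or the separate-channel fit. AGABI2DRAFT_139997 had an irrigated minus drought difference of -0.93 if turned. Signal over background limits the lower set on riboflavin replicate 2.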

Other observations

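In 4 tested genes the riboflavin effect in irrigated mycelium was beyond 1 log2 unit in both replicate numbers with opposite signs. They were named after their values were seen and have no symbol. AGABI2DRAFT_192459 stood at 1.62 in replicate 1 and -2.99 in replicate 2. AGABI2DRAFT_194769 (1.67 and -2.35), AGABI2DRAFT_147031 (1.85 and -2.24) and AGABI2DRAFT_117512 (1.19 and -1.87) had the same order of signs, so all 4 were higher in the Cy5 and lower in the Cy3 irrigated channel. NdufS7, a subunit of complex I, was well above background on 2 irrigated arrays. These were not both arrays of 1 group, so it was not tested. Its level ran from 5.76 to 8.91.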
